A study of Mus musculus with 10 samples.

Results

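The Twist, Hand, Snail and Zeb genes are 10 developmental regulators, and their H3K27me3 peak coverage was described in 5 mouse lymphoma lines. The members were *Twist1*, *Twist2*, *Hand1*, *Hand2*, *Msc*, *Snai1*, *Snai2*, *Snai3*, *Zeb1* and *Zeb2*, chosen by symbol, and all 10 were found among the 22367 protein-coding genes of the mm9 annotation used as background. The parental line is a B-cell lymphoma line from a C57BL/6J mouse. It carries the Eμ-Myc transgene, whose immunoglobulin heavy chain enhancer drives *Myc* in B-lineage cells, and lacks *Cdkn2a* (Cdkn2a-/-). All 5 lines share both alterations. The R100, R500, R1000 and R4000 lines are resistant sub-clones from a dose escalation of mafosfamide, an alkylating agent that is active in culture. They were taken at 100, 500, 1000 and 4000 nM after 10, 18, 23 and 37 days. Each resistant line is therefore 1 sub-clone at 1 dose and 1 time, so dose, time and clone cannot be told apart. For the ChIP-seq, the cells were grown without the drug. The study asked whether the polycomb mark differs as the cells become resistant.

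H3K27me3 is the trimethyl mark that polycomb repressive complex 2 places on histone H3, and it is known for covering silent developmental genes. Twist, Hand and Msc proteins are basic helix-loop-helix factors that bind E-boxes (CANNTG), usually as dimers with E proteins. Snail and Zeb proteins are zinc-finger factors that bind the E-box forms CAGGTG and CACCTG. Several of them repress epithelial genes such as *Cdh1* and are known as drivers of the epithelial-mesenchymal transition, in which cells leave an epithelial sheet. In the embryo they act in mesoderm, neural crest, heart and limb.

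The data are 1 list of peak positions per line, with no height, count or score, so the level of the mark and the depth of the libraries are unknown. With 1 list per line there is no replicate error, and no difference between lines was tested. The lists differed in size: parental held 10778 distinct peaks, R100 25180, R500 21888, R1000 9595 and R4000 6820. The covered length was 3.09, 2.78, 0.988 and 0.658 times the parental length in R100, R500, R1000 and R4000. Peaks of at most 100 bp made up 59.0 to 67.1% of each list, and 19.7 to 59.5% of them overlapped a peak of another list, against 98.8 to 100% of peaks of at least 500 bp. Any overlap was counted, so a wider peak or longer other lists make an overlap likelier. These shares therefore do not measure how repeatable a peak is. A peak present in some of the cells and a peak present in all of them cannot be told apart in such lists. Expression was not analysed here, and among 7 B-cell genes listed as markers, 0, 3, 4, 2 and 1 had at least 150 bp covered in parental, R100, R500, R1000 and R4000, against 7.05 to 21.7% of all protein-coding genes over the lines. *Cd79a* and *Ms4a1*, which encode B-cell surface proteins, had no covered base in any list.

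The following sequences are shown because the results turn on them: the stretches of *Hand1* and *Snai3* that lay in peaks of all 5 lines, the stretch upstream of *Snai2* that was filled in R500 and R1000, and the 200 bp before the transcription start site (TSS) of *Hand1* and of 3 members without a peak there. Each is mm9 sequence on the strand of its gene, 5′ to 3′, and capitals mark matches to CANNTG, a palindromic pattern that reads alike on both strands. The *Hand1* upstream stretch is chr11:57650601-57650900 (minus strand), the middle of a 500-bp run that ends at position -4181 relative to the TSS (minus meaning upstream), between *Hand1* and the predicted gene *Gm11003*. The *Hand1* downstream stretch is chr11:57641401-57641700 (minus strand), intergenic, 4620 to 4919 bp past the TSS and beyond the 3′ end of the gene. The *Snai3* stretch is chr8:124984101-124984350 (minus strand), within the first intron. The *Snai2* stretch is chr16:14705051-14705300 (plus strand), at positions -894 to -645. The proximal promoters are chr11:57646321-57646520 (*Hand1*, minus strand), chr8:59799580-59799779 (*Hand2*, plus strand), chr12:34642336-34642535 (*Twist1*, plus strand) and chr2:167363495-167363694 (*Snai1*, plus strand).
Hand1 upstream stretch: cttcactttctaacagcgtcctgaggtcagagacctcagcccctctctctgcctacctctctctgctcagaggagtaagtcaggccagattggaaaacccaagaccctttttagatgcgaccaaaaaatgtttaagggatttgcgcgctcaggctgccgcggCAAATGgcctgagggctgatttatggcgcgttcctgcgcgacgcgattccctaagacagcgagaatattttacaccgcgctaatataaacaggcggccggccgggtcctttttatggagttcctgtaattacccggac
Hand1 downstream stretch: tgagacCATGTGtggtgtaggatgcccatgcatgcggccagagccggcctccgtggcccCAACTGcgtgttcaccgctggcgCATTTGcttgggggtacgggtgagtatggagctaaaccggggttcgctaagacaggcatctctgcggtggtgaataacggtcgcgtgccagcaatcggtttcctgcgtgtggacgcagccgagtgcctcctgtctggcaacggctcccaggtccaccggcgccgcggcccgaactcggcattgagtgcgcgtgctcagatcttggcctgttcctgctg
Snai3 intronic stretch: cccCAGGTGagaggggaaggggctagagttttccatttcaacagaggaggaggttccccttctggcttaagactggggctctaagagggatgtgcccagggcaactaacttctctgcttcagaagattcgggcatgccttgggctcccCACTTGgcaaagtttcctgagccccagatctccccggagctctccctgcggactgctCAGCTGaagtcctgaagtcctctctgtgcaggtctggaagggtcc
Snai2 upstream stretch: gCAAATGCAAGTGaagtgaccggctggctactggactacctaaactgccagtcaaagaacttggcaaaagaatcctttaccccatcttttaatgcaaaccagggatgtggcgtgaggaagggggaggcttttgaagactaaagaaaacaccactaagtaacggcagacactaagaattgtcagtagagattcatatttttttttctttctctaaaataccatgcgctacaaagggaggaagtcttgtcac
Hand1 proximal promoter: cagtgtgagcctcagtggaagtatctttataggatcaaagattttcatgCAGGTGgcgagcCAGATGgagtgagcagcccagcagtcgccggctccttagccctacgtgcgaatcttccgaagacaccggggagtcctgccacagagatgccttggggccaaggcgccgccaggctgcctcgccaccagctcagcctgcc
Hand2 proximal promoter: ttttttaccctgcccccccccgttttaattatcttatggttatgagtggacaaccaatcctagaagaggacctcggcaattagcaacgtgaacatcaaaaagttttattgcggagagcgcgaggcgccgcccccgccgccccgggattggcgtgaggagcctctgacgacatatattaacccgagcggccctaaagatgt
Twist1 proximal promoter: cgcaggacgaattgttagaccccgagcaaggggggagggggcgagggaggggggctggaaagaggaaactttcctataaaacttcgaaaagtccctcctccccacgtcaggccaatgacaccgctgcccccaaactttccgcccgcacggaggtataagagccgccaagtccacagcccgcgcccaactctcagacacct
Snai1 proximal promoter: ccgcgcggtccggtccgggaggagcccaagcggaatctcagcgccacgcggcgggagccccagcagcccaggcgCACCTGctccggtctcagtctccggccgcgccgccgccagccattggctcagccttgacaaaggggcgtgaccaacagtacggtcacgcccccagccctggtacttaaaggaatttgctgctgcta

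The mark was concentrated on 3 members. Covered bases were counted in the gene span, from 5 kb upstream of the TSS to the 3′ end, and a gene was called covered at 150 bp or more (3 bins of 50 bp). *Hand1* and *Snai3* were covered in all 5 lines, *Snai2* in the 4 resistant lines and *Zeb1* in R100 alone. *Hand2* and *Zeb2* had at most 100 bp in 1 line each. *Twist1*, *Twist2*, *Snai1* and *Msc* had no covered base in any list, so close relatives stood at opposite ends: *Hand1* against *Hand2*, and *Snai2* and *Snai3* against *Snai1*.

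**Figure D1:**
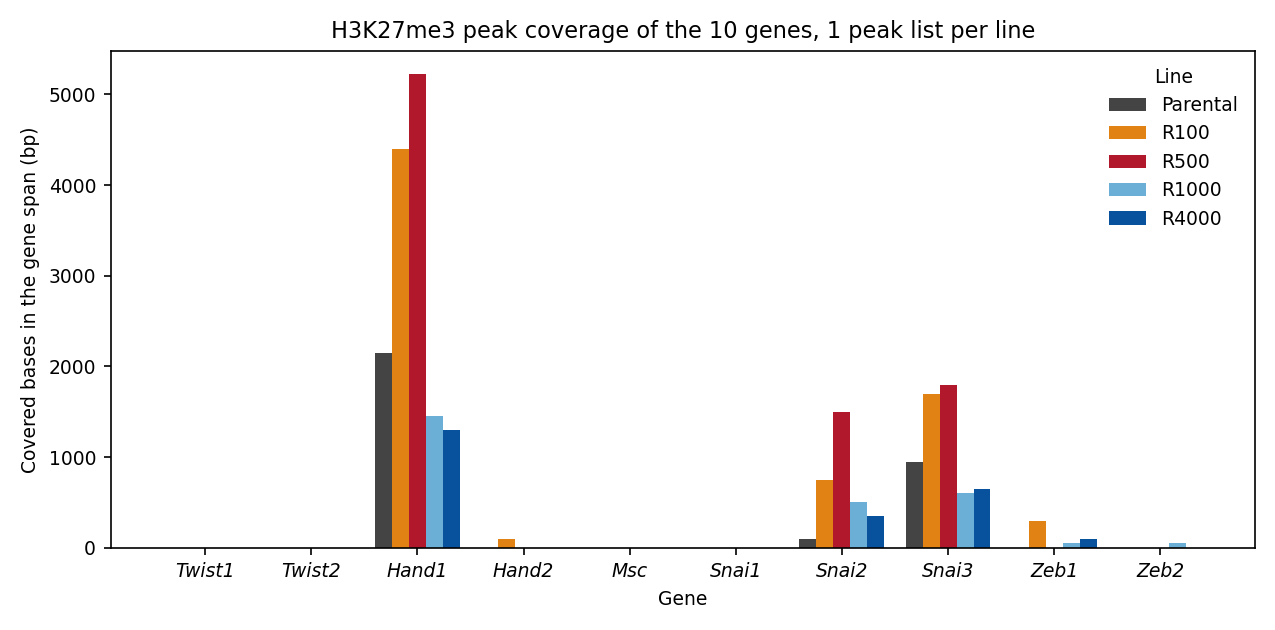
Bars give the bases of each gene span (5 kb upstream of the TSS to the gene end, in bp) inside H3K27me3 peaks, with 1 bar per line and gene and 1 peak list per line, so there is no error bar. *Hand1* has the tallest bars, from 1300 bp in R4000 to 5220 bp in R500, followed by *Snai3* and *Snai2*, and 4 genes have no bar.

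Counted over the members, 2 of 10 (20%) were covered in parental, against 7.67% of protein-coding genes. In R100 4 members (40%) were covered, against a background of 21.7%, and in R500 3 members (30%), against 17.0%. In R1000 and in R4000 3 members (30%) were covered, against 8.87% and 7.05%. Coverage in all 5 lines was reached by 2 members (20%), against 4.35% of genes, while 4 members (40%) had no covered base in any list, against 57.2%. The members' share was above the background in each line, but it rests on 2 to 4 genes. The median over the 10 members was 0, 50, 0, 25 and 0 bp in parental, R100, R500, R1000 and R4000, against 0 bp in each line for all protein-coding genes. Spans differ in length, from 7147 bp for *Twist1* to 188608 bp for *Zeb1*, so windows of equal length were counted too. In windows reaching 2 kb to either side of the TSS the covered members were again 2, 4, 3, 3 and 3, with backgrounds of 5.26% (parental), 17.4% (R100), 13.3% (R500), 6.92% (R1000) and 5.51% (R4000), and 2 members against 3.17% of genes in all 5 lines. In these windows *Hand1* met the minimum exactly in R4000, with 150 bp from peaks of 50 and 100 bp. The R4000 count and the count over all 5 lines both include it.

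**Figure D2:**
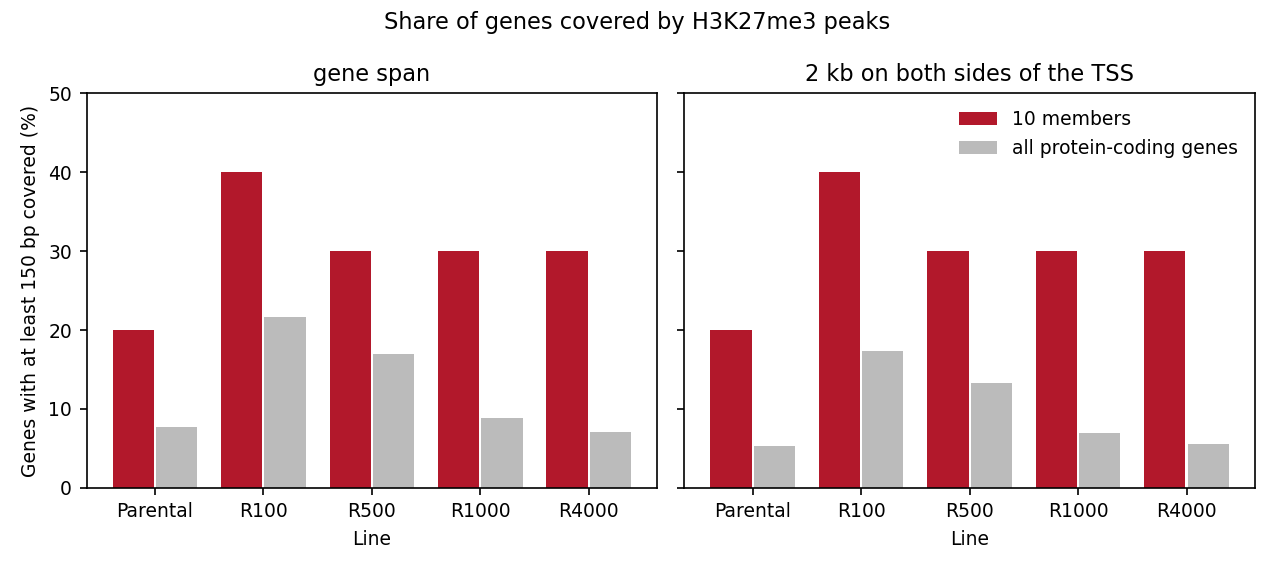
Bars give the percent of genes with at least 150 bp in H3K27me3 peaks in each line, for the 10 members and for all 22367 protein-coding genes, in the gene span (left) and 2 kb to either side of the TSS (right). The members' bars stand at 20 to 40%, above the grey bars of all genes in each line, with 2 to 4 genes behind each.

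*Hand1* (ENSMUSG00000037335.7, chr11:57642207-57646320, minus strand) encodes a factor of the heart, limb and extraembryonic tissues. Of its 9114-bp span, peaks held 2150 bp (parental), 4400 bp (R100), 5220 bp (R500), 1450 bp (R1000) and 1300 bp (R4000). R100 and R500 thus lay above parental, and R1000 and R4000 below it. Counted in bases and not per length, these values placed *Hand1* behind 90, 98, 71, 195 and 128 of the 22367 genes in parental, R100, R500, R1000 and R4000. The bases came from 8, 12, 10, 6 and 6 peaks in that order, the widest of them 600, 1050, 2400, 700 and 500 bp. The TSS itself lay in a peak in parental, R100 and R500, and in no peak of R1000 or R4000. Its proximal promoter, printed above, was covered over 130, 30, 200, 0 and 0 of its 200 bp, with the lines in the same order. Upstream of the TSS, 1380, 2480, 3200, 1200 and 850 bp were covered in that order. The exons held 675, 1098, 904, 100 and 258 bp and the intron 95, 822, 1116, 150 and 192 bp. The lower values of R1000 and R4000 therefore included both the upstream part and the exons. In the intron both lines lay above parental.

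The coverage of *Hand1* ran past both ends of the span. From 20 kb to 5 kb upstream of the TSS, the lines had 1000 bp (parental), 1900 bp (R100), 2630 bp (R500), 600 bp (R1000) and 1000 bp (R4000). Past the 3′ end the order of the lines was another one. There, up to 20 kb past the TSS, the lines had 1000 bp (parental), 1600 bp (R100), 1650 bp (R500), 1600 bp (R1000) and 1350 bp (R4000), so that R1000 and R4000 exceeded parental instead of falling below it. In each resistant line these bases formed 1 unbroken peak that began 4320 bp past the TSS, whereas parental had 3 peaks there, the widest of 600 bp. Only 23 of 9595 peaks in R1000 (0.240%) and 20 of 6820 in R4000 (0.293%) were wider, compared with 179 of 25180 in R100 (0.711%) and 153 of 21888 in R500 (0.699%). In all 5 lines the peaks shared 900 bp past the 3′ end, 600 bp of it in 1 run, from which the *Hand1* downstream stretch printed above is the middle. Within the span the bases common to all lines were 600 bp, in a run of 500 bp (the *Hand1* upstream stretch is its middle) and one of 100 bp, at positions -780 to -681. The union over the lines was 6070 bp, or 66.6% of the span.

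**Figure D3:**
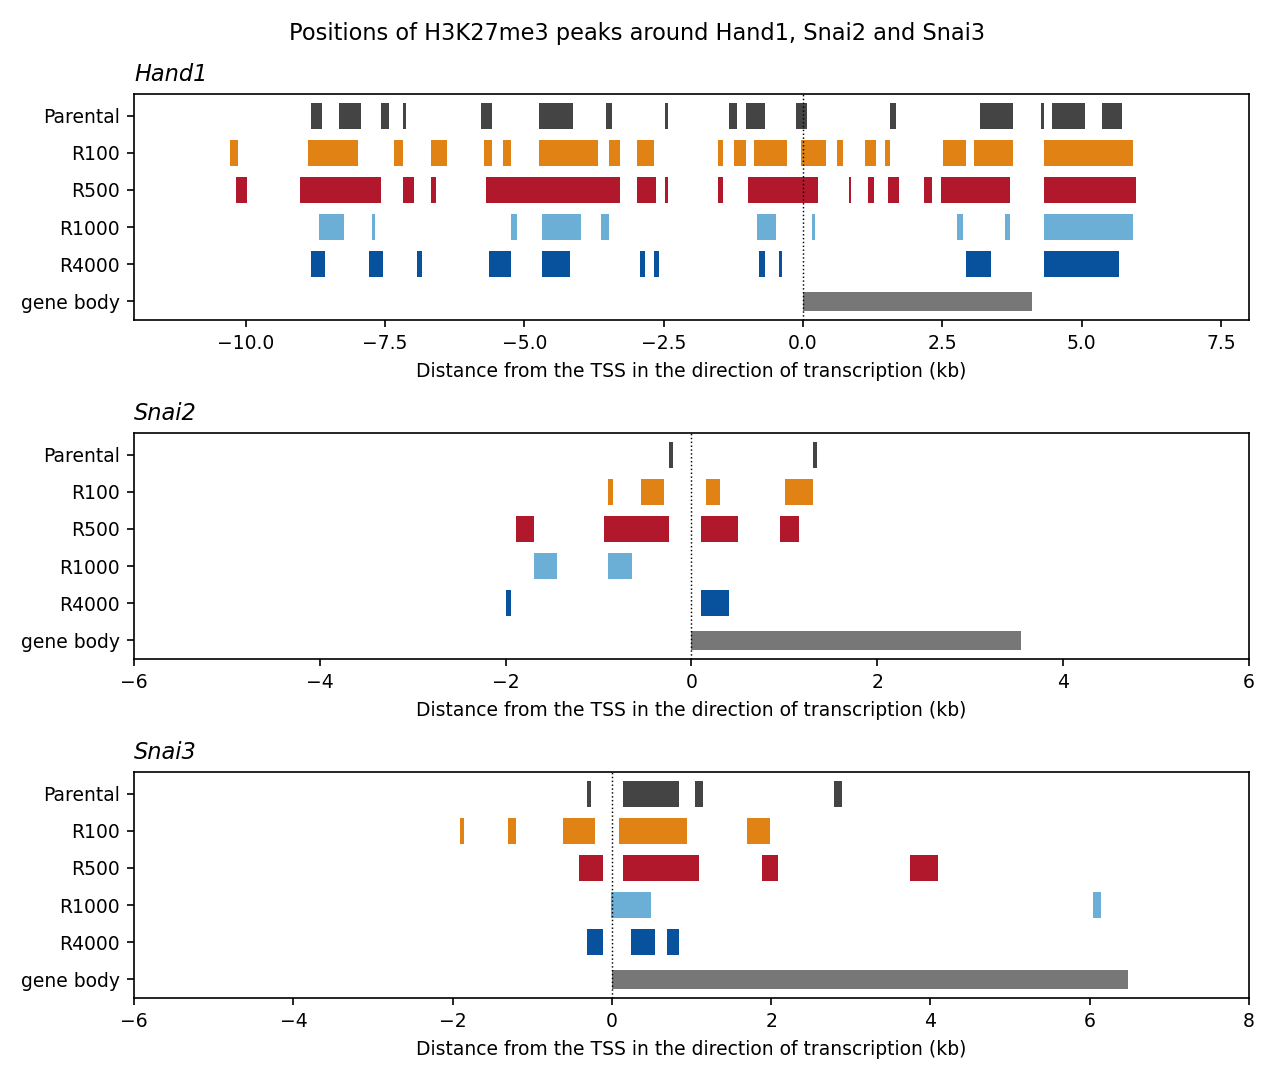
Each block is an H3K27me3 peak, drawn to scale in kb from the TSS (dotted line) in the direction of transcription, with 1 row per line and the gene body in grey at the bottom. At *Hand1* the block past the gene body is unbroken in the 4 resistant lines, at *Snai3* the blocks coincide just inside the gene, and at *Snai2* the 2 narrow parental blocks overlap none of the others.

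*Hand1* bases were also shared between lines to a larger extent than the lists as a whole, which is given as a description. Parental and R100 shared 32.3% of their joint *Hand1* bases, against 15.4% over the whole lists, and parental and R500 shared 34.7%, against 17.9%. R100 and R500 shared 63.9%, against 34.4%. All *Hand1* bases of R1000 (100%) and 96.2% of those of R4000 lay in R500 peaks, against 67.0% and 70.9% over the whole lists. Of the parental bases, 39.5% and 37.2% were found in R1000 and R4000, against 34.9% and 24.8% over the whole lists.

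*Hand2* (chr8:59799780-59803314, plus strand), the paralog of *Hand1* with roles in heart, limb and sympathetic neurons, had 0 bp in parental, R500, R1000 and R4000 and 100 bp in R100. That single peak lay 2771 to 2870 bp past the TSS, with 92 bp in coding exon. The nearest peak to its TSS was 3313 kb (parental), 6.83 kb (R500), 134 kb (R1000) and 688 kb (R4000) away.

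*Twist1* (chr12:34642536-34644682, plus strand) and *Twist2* (chr1:93698038-93744605, plus strand), regulators of mesoderm and mesenchyme, were without a covered base in the 5 lists. The nearest peak to the *Twist1* TSS lay 811, 9.22, 533, 533 and 812 kb away in parental, R100, R500, R1000 and R4000, the one in R100 being 50 bp wide. For *Twist2* it lay 30.8, 261, 42.6, 42.8 and 307 kb away. *Msc* (chr1:14743427-14746047, minus strand), which encodes musculin, a repressor in muscle precursors that is also known from activated B cells, had its nearest peak 250, 249, 162, 250 and 160 kb away. No unknown bases lie in any of the 10 spans, and how well reads can be placed there was not tested.

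*Snai3* (ENSMUSG00000006587.5, chr8:124978106-124984592, minus strand), a Snail family member known from muscle and lymphoid cells, had covered lengths of 950 bp (parental), 1700 bp (R100), 1800 bp (R500), 600 bp (R1000) and 650 bp (R4000). As for *Hand1*, R100 and R500 lay above parental and R1000 and R4000 below. In the annotation *Snai3* lies inside the readthrough gene *Gm20388*, so the peaks cannot be assigned to *Snai3* alone. Its coverage was mainly intronic, with 888, 1088, 1360, 338 and 450 bp in introns and 12, 62, 140, 254 and 0 bp in exons in parental, R100, R500, R1000 and R4000. Upstream of the TSS it had 50, 550, 300, 8 and 200 bp in that order. A run of 250 bp, 242 to 491 bp past the TSS, was covered in all 5 lines and is the *Snai3* stretch printed above. It was the only base stretch of *Snai3* in all 5 lists, out of a union of 2750 bp. Sharing of *Snai3* bases ranged over the 10 pairs of lines from 17.1% of the joint bases (R500 and R1000, against 21.3% over the whole lists) to 45.8% (R100 and R500, against 34.4%). All bases of R4000 (100%) lay in R500 peaks, against 70.9% over the whole lists, but 58.3% of those of R1000, against 67.0%.

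*Snai2* (ENSMUSG00000022676.6, chr16:14705945-14709488, plus strand) encodes Slug, a repressor of *Cdh1* that acts in neural crest and blood progenitors. Its covered lengths were 100 bp (parental), 750 bp (R100), 1500 bp (R500), 500 bp (R1000) and 350 bp (R4000). Each resistant line thus lay above parental, whose 100 bp consisted of 2 peaks of 50 bp, the narrowest width in the lists. This order depends on the window and the peaks used: in the 5 kb upstream alone R4000 and parental both had 50 bp, in the gene body alone R1000 had 0 bp against 50 bp in parental, and of peaks at least 500 bp wide *Snai2* held 700 bp in R500 and 0 bp in the other lines. Reaching 150 bp in all 4 resistant lines and not in parental was met by 1 member of 10, *Snai2*, and by 0.952% of protein-coding genes. All covered bases of *Snai2* lay within 2 kb of the TSS, and the TSS itself was in no peak.

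The resistant lines did not cover the same bases of *Snai2*. R1000 had 2 peaks of 250 bp, both upstream of the TSS, whereas R4000 had a 300-bp peak 106 to 405 bp past the TSS and 1 of 50 bp upstream. R1000 and R4000 shared 0 bp at *Snai2*, and no base was covered in more than 3 of the 5 lines. The *Snai2* stretch printed above was covered over 250 bp in R500 and R1000, over 50 bp in R100 and over 0 bp in parental and R4000. The 2 parental peaks shared no base with any resistant line. They did adjoin other peaks: one began at the base after the end of an R500 peak, and the other at the base after the end of an R100 peak.

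*Snai1* (chr2:167363695-167368314, plus strand), the family member required for gastrulation, had no covered base, and its nearest peak lay 187, 92.9, 21.8, 101 and 45.7 kb from its TSS, with the lines in the same order. *Zeb1* (chr18:5591858-5775465, plus strand), a repressor of *Cdh1* with a known role in lymphocyte development, had 0, 300, 0, 50 and 100 bp in that order. The 300 bp of R100 were 1 intronic peak, 1193 to 1492 bp past the TSS. The peaks of R1000 and R4000 lay upstream, at positions -757 to -708 and -607 to -508, so none of the 3 lines shared a *Zeb1* base. *Zeb2* (chr2:44839154-44972915, minus strand), a relative of *Zeb1* with roles in neural crest and immune cells, had 50 bp in R1000, in an intron 6415 to 6464 bp past the TSS, and 0 bp elsewhere. At *Hand2*, *Zeb1* and *Zeb2*, no peak overlapped one of another list.

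Set beside the parental line, *Hand1* had 2.05, 2.43, 0.674 and 0.605 times the parental bases in R100, R500, R1000 and R4000, and *Snai3* had 1.79, 1.89, 0.632 and 0.684 times. *Snai2* had 7.50, 15.0, 5.00 and 3.50 times, ratios that rest on the 100 parental bases. The ratios of *Hand1* and *Snai3* lay between the quartiles of those of the 1716 genes covered in parental. The median ratio of these genes was 2.44 (R100), 2.33 (R500), 0.846 (R1000) and 0.469 (R4000). In R4000, 59.4% of these genes had a lower ratio than *Hand1* and 64.8% a lower one than *Snai3*. In R1000, 40.3% and 35.7% did, in R100 40.9% and 33.0%, and in R500 53.3% and 37.8%. Per Mb of the whole list the directions were others: *Hand1* had 1317 bp in parental, 874 and 1152 bp in R100 and R500, and 899 and 1211 bp in R1000 and R4000. *Snai3* had 582 bp in parental, 338 and 397 bp in R100 and R500, and 372 and 605 bp in R1000 and R4000. On this scale R100 and R500 lay below parental for both genes, and R4000 lay above it for *Snai3*. In bases, the pattern of more than parental in R100 and R500 and fewer in R1000 and R4000 was met by both members covered in parental, and by 33.4% of the 1716 genes.

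**Figure D4:**
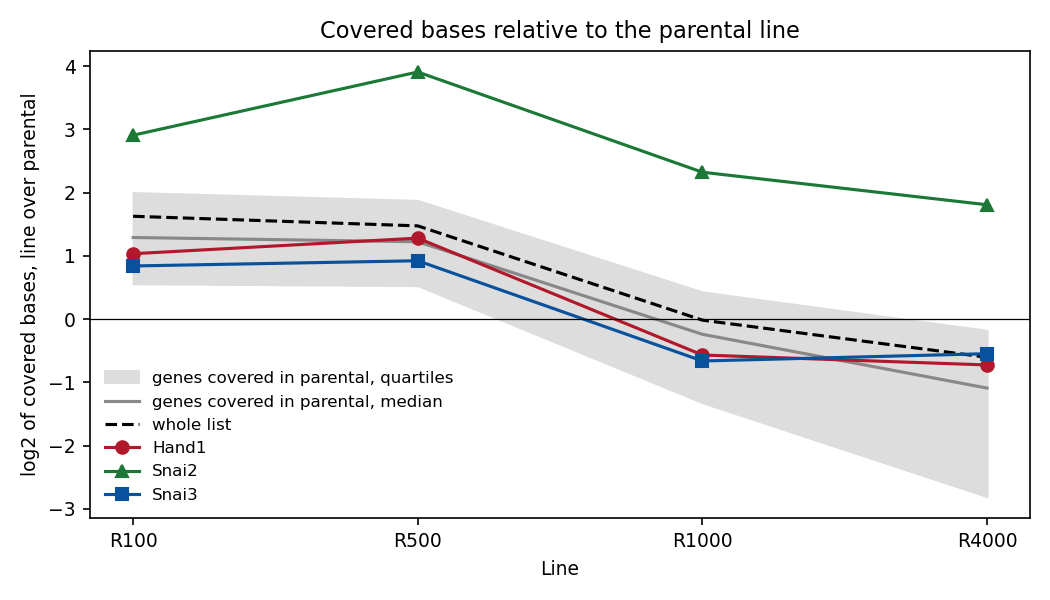
Points give the log2 ratio of covered bases in each resistant line over parental for *Hand1*, *Snai2* and *Snai3*; the grey line and band are the median and quartiles of the 1716 genes with at least 150 bp in parental, and the dashed line is the whole list. *Hand1* and *Snai3* stay inside the band in each line. *Snai2* lies above it, but with 100 bp in parental it is not among the genes of the band.

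A gene was called higher with at least 150 bp in the resistant line and at least 2 times the parental bases. By this rule 3 members were higher than parental in R100 (*Hand1*, *Snai2* and *Zeb1*), against 19.1% of genes. In R500 2 were higher (*Hand1* and *Snai2*), against 14.3%. In R1000 and R4000 1 was higher (*Snai2*), against 3.83% and 2.63%. A gene could be called lower by 2-fold only with at least 150 bp in parental, which *Hand1* and *Snai3* alone of the members had. Neither was lower in any line in the gene span. Some other settings gave drops of 2-fold or more. Within 2 kb of the TSS *Hand1* had 800 bp in parental, 400 bp in R1000 and 150 bp in R4000. In the gene body alone *Hand1* had 770 bp in parental and 250 bp in R1000, and *Snai3* 900 bp in parental and 450 bp in R4000. Of peaks at least 500 bp wide, *Hand1* held 1200 bp in parental and 500 bp in R4000. Within 20 kb of the TSS neither gene was lower by 2-fold. Of the 1716 genes covered in parental, 118 (R100), 130 (R500), 524 (R1000) and 920 (R4000) were lower in the gene span. These are 0.528, 0.581, 2.34 and 4.11% of all protein-coding genes. Summed over the 10 members, 3200, 7250, 8520, 2650 and 2400 bp were covered in parental, R100, R500, R1000 and R4000. The sums in the resistant lines were 2.27, 2.66, 0.828 and 0.750 times parental, compared with 3.43, 3.01, 1.11 and 0.759 times for the spans of all protein-coding genes. *Hand1* alone held most of each sum. Without it, R1000 and R4000 lay above parental, with log2 ratios of 0.19 and 0.067 in place of -0.27 and -0.42.

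The protein-coding genes whose covered bases over the 5 lines were nearest to those of *Hand1*, by the sum of absolute differences, were *Dnajc22* (1420 bp apart), *Prdm8* (1720 bp) and *Gm53* (1824 bp). Those nearest to *Snai3* were *Tle3* (300 bp), *Ankrd27* (400 bp) and *Rgs9bp* (450 bp), and those nearest to *Snai2* were *Mfap3l* (450 bp), *Edn1* (450 bp) and *Dclk2* (550 bp). *Ankrd27* and *Rgs9bp* both lie on chromosome 7 and had equal covered bases except in R100 (1850 and 1900 bp). Whether they hold the same peaks was not tested, so they may not be separate cases. *Edn1*, which encodes endothelin 1, had 150, 700, 1350, 600 and 250 bp in parental, R100, R500, R1000 and R4000.

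Near the TSS, the 3 members with the most coverage had less CpG than the others, which is given with no test. In the window of 1 kb to either side of it, the ratio of observed to expected CpG was 0.423 for *Hand1*, 0.430 for *Snai3* and 0.575 for *Snai2*, around the median of 0.468 over protein-coding genes. It was higher for the other members, at 0.598 for *Msc*, 0.677 for *Snai1*, 0.683 for *Zeb2*, 0.722 for *Twist2*, 0.811 for *Twist1*, 0.816 for *Hand2* and 0.927 for *Zeb1*. Over all genes the order was the other way: the share with at least 150 bp within 2 kb of the TSS in all 5 lines was 0.107% in the lowest CpG tier, 2.98% in the middle tier and 6.44% in the highest, the tiers being of equal size. Of the 10 members 6 fell in the highest tier and 4, among them *Hand1*, *Snai2* and *Snai3*, in the middle tier. Within 2 kb of the TSS, *Zeb1* in R100 was the only case of coverage among the 6, in a line where 31.7% of genes of that tier were covered.

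**Figure D5:**
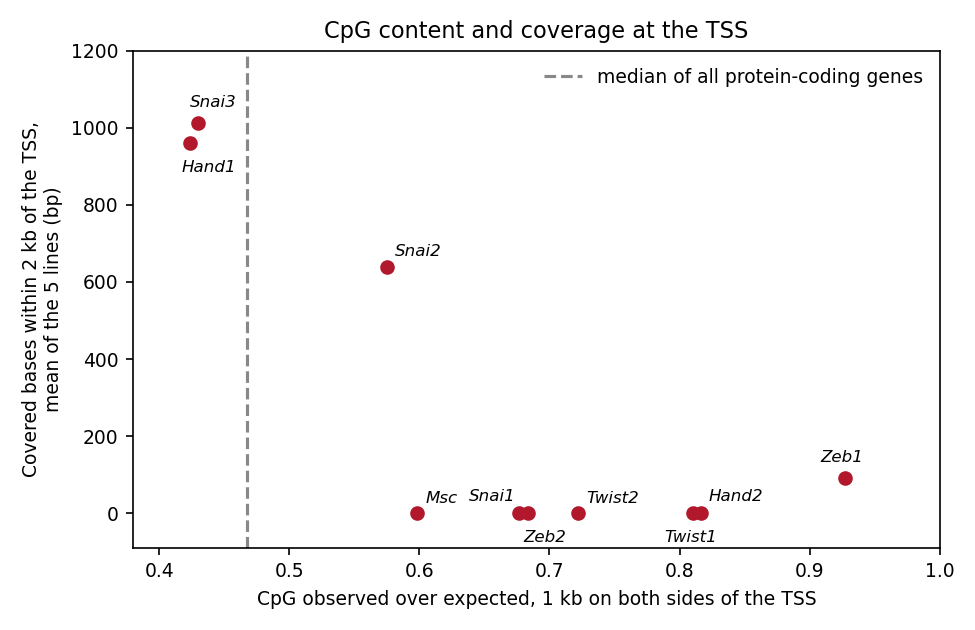
Each point is a member, placed by the ratio of observed to expected CpG in the window 1 kb to either side of its TSS and by the mean over the 5 lines of the covered bases within 2 kb of the TSS (bp); the dashed line is the median ratio of all protein-coding genes, 0.468. *Hand1*, *Snai3* and *Snai2* lie at ratios of 0.423 to 0.575 and high coverage, and the other 7 members at higher ratios and near 0 bp.

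E-box matches did not follow coverage in the same way. In the window of 1 kb on both sides, *Snai3* held 18 matches to CANNTG, *Snai1* 14, *Snai2* 13, *Zeb2* and *Msc* 9 each, *Hand1* 8, *Twist2* 7, *Hand2* and *Zeb1* 6 each and *Twist1* 1, against a median of 9 over genes and 99.9% of windows with a match. The forms CAGGTG or CACCTG, a subset of CANNTG searched on both strands, were found 7 times at *Snai3*, 6 times at *Snai1*, 4 at *Zeb1*, 3 each at *Zeb2* and *Msc*, 2 each at *Hand1* and *Snai2*, and not at *Twist1*, *Twist2* or *Hand2*, with 79.1% of all windows holding one. Of the printed sequences, the *Snai3* stretch held 3 matches to CANNTG, of which 1 was CAGGTG, and the *Hand1* upstream and downstream stretches held 1 and 3. Of windows just upstream of genes, 63.6% of those of 250 bp and 70.4% of those of 300 bp held CANNTG, and 17.0% and 20.3% held CAGGTG or CACCTG. CpG dinucleotides numbered 19 in the *Hand1* upstream stretch, 26 in the downstream one, 3 in the *Snai3* stretch and 4 in the *Snai2* stretch. A match is a description of the letters and was not read as a binding site.

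Other genes of the same pathways were taken from lists by symbol. Their counts stand beside a background of 7.67% (parental), 21.7% (R100), 17.0% (R500), 8.87% (R1000) and 7.05% (R4000), the covered share among all protein-coding genes. Of 9 further Twist-related genes found in the annotation, 1 was covered in R100 and 0 in the other lines. It was *Mesp2*, a regulator of somite segmentation, with 0, 700, 50, 0 and 0 bp in parental, R100, R500, R1000 and R4000. *Scrt1* and *Scrt2*, neural members of the Snail superfamily, were not covered in parental and both were in R100, R500 and R1000. *Scrt1* had 100, 2550, 2150, 1250 and 350 bp, and *Scrt2* had 50, 1450, 650, 200 and 0 bp. Among the E proteins, the dimer partners of Twist and Hand, *Tcf12* had 50, 500, 450, 250 and 200 bp, *Tcf3* (E2a) had 0, 200, 300, 0 and 0 bp, and *Tcf4* had no covered base.

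Of 12 epithelial and mesenchymal genes known as targets, 3, 7, 6, 6 and 2 were covered in parental, R100, R500, R1000 and R4000, where the background over all protein-coding genes was 7.67, 21.7, 17.0, 8.87 and 7.05%. *Esrp1*, an epithelial splicing regulator, had 3600, 4900, 6000, 3800 and 1400 bp. The claudin gene *Cldn7* had 150, 2000, 1750, 250 and 0 bp, and *Epcam*, an epithelial adhesion gene, had 450, 950, 1150, 550 and 350 bp. *Ocln*, which encodes occludin of tight junctions, had 100, 700, 1350, 200 and 100 bp. *Cdh1*, which encodes E-cadherin, had 50, 400, 400, 300 and 50 bp, and the keratin gene *Krt18* had 0, 650, 300, 0 and 0 bp. The mesenchymal genes *Cdh2*, *Vim* and *Fn1*, together with the claudin gene *Cldn1*, had no covered base in any list.

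Of 6 genes for transforming growth factor β ligands and receptors, which induce several members in other tissues, 1, 5, 5, 3 and 3 were covered in that order, beside the same background of 7.67, 21.7, 17.0, 8.87 and 7.05%. Of the receptors, *Tgfbr3* had 550, 1700, 1850, 150 and 250 bp, *Tgfbr1* 100, 957, 300, 300 and 100 bp, and *Tgfbr2* 0, 100, 150, 0 and 0 bp. Of the ligands, *Tgfb2* had 100, 1150, 1350, 100 and 550 bp, *Tgfb1* 0, 600, 300, 200 and 200 bp, and *Tgfb3* 0, 200, 50, 0 and 0 bp. The pair *Tgfbr3* and *Tgfb2* thus differed in R4000, where *Tgfb2* stood above its parental value and *Tgfbr3* below. Among the Grainyhead-like and Ovo-like genes, whose products oppose the Zeb and Snail programme in epithelia, the same number, 3 of 5, was covered in each line. These were *Grhl3* (1650, 4700, 4600, 2250 and 1450 bp), *Ovol1* (1300, 2950, 2000, 1350 and 600 bp) and *Ovol2* (1050, 2250, 2400, 650 and 1000 bp). Over the 37 listed genes, 7, 20, 18, 15 and 10 were covered in parental, R100, R500, R1000 and R4000, beside 7.67, 21.7, 17.0, 8.87 and 7.05% of all protein-coding genes, a share that was likewise highest in R100 and R500. Coverage at markers of other cell types was 1, 2, 2, 2 and 1 of 3 epithelial genes, 0, 1, 1, 1 and 1 of 3 fibroblast genes, 1, 1, 2, 0 and 0 of 3 T-cell genes and 0 of 3 myeloid genes in each line, numbers too small to be read against the background of 7.05 to 21.7%.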

How the data were processed

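H3K27me3 ChIP-seq of 5 lines was analysed, and 5 RRBS samples of the same lines were not used here. The authors called peaks with Poisson statistics by comparing immunoprecipitated with input libraries in tiling windows. The submitters' processing notes name Bowtie and mm9. The deposited lists hold other values than levels, namely chromosome, start and end in base pairs, with no count or score. The study mentions 2 replicates and, for its promoter clusters, a p-value limit on at least 3 bins of 50 bp. The 150-bp rule takes that number of bins without the limit. The threshold of the lists themselves and whether they pool replicates are not given in the sources used here, and the depth is unknown. Entries listed 2 times in R100 and R500 were counted once. Python 3.11.15 (numpy 2.4.6, pandas 2.3.3; figures with matplotlib 3.10.9) was used to count covered bases over genes of the GENCODE annotation of mm9, and the step was tested on simulated data. No test was made, since each line has 1 list.

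The members and gene lists were chosen with earlier results of these data known. All 10 members are named. From each list up to 6 genes with at least 150 bp in a line qualified, by summed bases, and the 3 nearest genes are given for each of 3 members. *Tcf24* was not matched. The alternatives were other windows, a minimum of 50 or 500 bp, peaks of at least 500 bp, lists reduced to equal number, joined peaks, scaling to the list total and leaving out *Hand1*.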

Additional observations from a re-analysis of the deposited data

Results flagged for a closer look

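*Hand1* and *Snai3* had more covered bases than parental in R100 and R500 and fewer in R1000 and R4000, so the lines of lower and of higher dose lay on opposite sides of parental. The log2 ratios over parental of *Hand1* were 1.03 (R100), 1.28 (R500), -0.57 (R1000) and -0.73 (R4000). Those of *Snai3* were 0.84, 0.92, -0.66 and -0.55. This difference between lines was not tested, as there is 1 list per line. The whole lists had log2 ratios of 1.63, 1.47, -0.02 and -0.60 in the same order, and the part of depth in these values was not tested. R100 and R500 are also the only lists that held each peak 2 times. Whether all lists were made in the same way was not tested. Divided by the covered length of the list, both genes lay below parental in R100 and R500, and *Snai3* lay above it in R4000 (605 against 582 bp per Mb).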

How the results depend on the processing

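Over the alternatives run, the number of members covered stayed within 1.5 times in 41 comparisons and left that range in 4: 1 in parental in the 5 kb upstream only, 2 in R100 and 1 in R4000 with only peaks of at least 500 bp, and 5 in R1000 at a minimum of 50 bp. The summed log2 ratio over parental changed sign when bases were divided by the list total, to -0.45 in R100, -0.061 in R500 and 0.19 in R4000. It also did so in R1000 in the 5 kb upstream only (0.25) and without *Hand1* in R1000 (0.19) and R4000 (0.067). It was -0.95 in R1000 in the gene body only and -1.93 in R4000 with only peaks of at least 500 bp. For *Snai3* alone, the log2 ratio of R4000 over parental was 2.0 in the 5 kb upstream only. That ratio rests on 50 bp in parental and 200 bp in R4000. The cause of these changes was not tested. Counts within 2 kb of the TSS and counts of the related genes kept within 1.5 times in the alternatives run for them. For the counts near the TSS these were a minimum of 50 bp and a window of 5 kb, and no stricter rule was run. No replicate could be left out and no paired analysis was possible because each line has 1 list. The depth is unknown, so the absence of a peak does not show the absence of the mark.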
